A study of Mus musculus with 10 samples.

Results

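Inflammatory monocytes are short-lived blood cells with high surface Ly6C that leave the bone marrow and enter inflamed tissue, where they turn into macrophages or dendritic-like cells. On the way they lose the genes of the blood monocyte and gain those of a tissue phagocyte. Ly6C is a small protein tied to the membrane by a lipid anchor, and it is the surface label by which such cells are commonly sorted. Marker genes of early monocytes were followed here. They were the 8 rows of the count table whose symbols are *Ly6c2*, *Ly6c1*, *Ly6i*, *Plac8*, *Vcan*, *Lyz2*, *Fn1* and *Hp*, of 55487 genes in all.

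The cells came from the spinal cords of 5 male C57BL/6 mice carrying *Arg1*tm1Lky, a reporter allele in which cells that express *Arg1* also make yellow fluorescent protein (YFP). The methods give the age of the animals as 8 to 12 weeks. All 5 mice had experimental autoimmune encephalomyelitis (EAE), a model of multiple sclerosis induced with a myelin peptide, complete Freund's adjuvant and pertussis toxin, and were taken at peak disease. From each spinal cord, viable cells that were CD3-, Ly6G-, CD45+ and CX3CR1+ were sorted into a YFP+ fraction of 200000 cells (ARG1+) and a YFP- fraction of 100000 cells (ARG1-), and each fraction gave 1 library. The gate leaves out T cells and neutrophils, but it can hold border-associated macrophages and dendritic cells beside cells derived from monocytes, and no healthy animals and no blood monocytes were part of the comparison. The 5 ARG1+ and 5 ARG1- libraries thus come from the same 5 animals, named m2, m6, m234, m235 and m236.

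The ARG1+ libraries held 28870482 to 33826355 counts and the ARG1- libraries 8396863 (m234) to 35455643. The lowest count of any member in any library was 357, for *Vcan* in the ARG1- library of m234. Levels are given as CPM, counts divided by the TMM-scaled size of their library, and group values are means ± SD over libraries throughout. Fold changes are ARG1+ over ARG1- on the log2 scale, so that negative values are lower in ARG1+ cells. A gene was called at a false discovery rate (FDR) below 0.05 over the 13740 genes tested with edgeR's quasi-likelihood test. *Arg1* itself, the check of the sort, had a log2 fold change of 5.45 (FDR 1.07e-07), from 18.4 ± 4.95 CPM in the YFP- to 813 ± 174 CPM in the YFP+ fraction (n = 5 each). The ARG1- library of m234 stood apart in depth and in its microglia markers, which summed to 3279 CPM there, to 883 to 1570 CPM in the other ARG1- libraries and to 793 to 1230 CPM in the ARG1+ libraries. Values without this library are given beside several of the results below.

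The 8 markers did not move as a group. *Plac8* and *Vcan* were lower in ARG1+ cells, *Lyz2* was higher, and the other 5 did not pass the FDR limit. *Plac8* had the largest difference, 4.57-fold lower in ARG1+ cells, and it was the only member whose ARG1+ and ARG1- libraries did not overlap. All 8 members passed the filter on low counts. Of these, 2 were called lower, where 6.15% of all tested genes were, and 1 was called higher, where 6.82% were. Past both the FDR limit and a log2 fold change of 1 in size, the same 2 members were lower, against 0.888% of all genes. *Vcan* only just passed the limit on size, at −1.005. It missed that limit without the filter on low counts, at −0.990, and ranged from −1.20 to −0.87 with libraries or animals left out. Groups without overlap and with ARG1+ below were found in 1 member and in 5.20% of all genes. The median log2 fold change of the 8 members was −0.31, and that of all tested genes was −0.0022. In bulk libraries, fewer cells of a type and less RNA per cell cannot be told apart, and this holds for every difference below.

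Since both fractions came from the same animals, the difference can also be read within each animal. *Ly6c2*, *Ly6c1*, *Plac8* and *Vcan* were lower in ARG1+ cells in 5 of 5 animals, as were 21.0% of all tested genes. *Lyz2*, *Fn1* and *Hp* were higher there in 5 of 5 animals, as were 20.0% of all tested genes. When the edgeR fit took the animal as a replicate block, 4 members were called lower, against 18.3% of all genes, and 3 were called higher, against 16.8%. *Ly6i* was called neither with nor without the block. The plot of fold changes sets the fits beside the differences within animals.

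**Figure D1:**
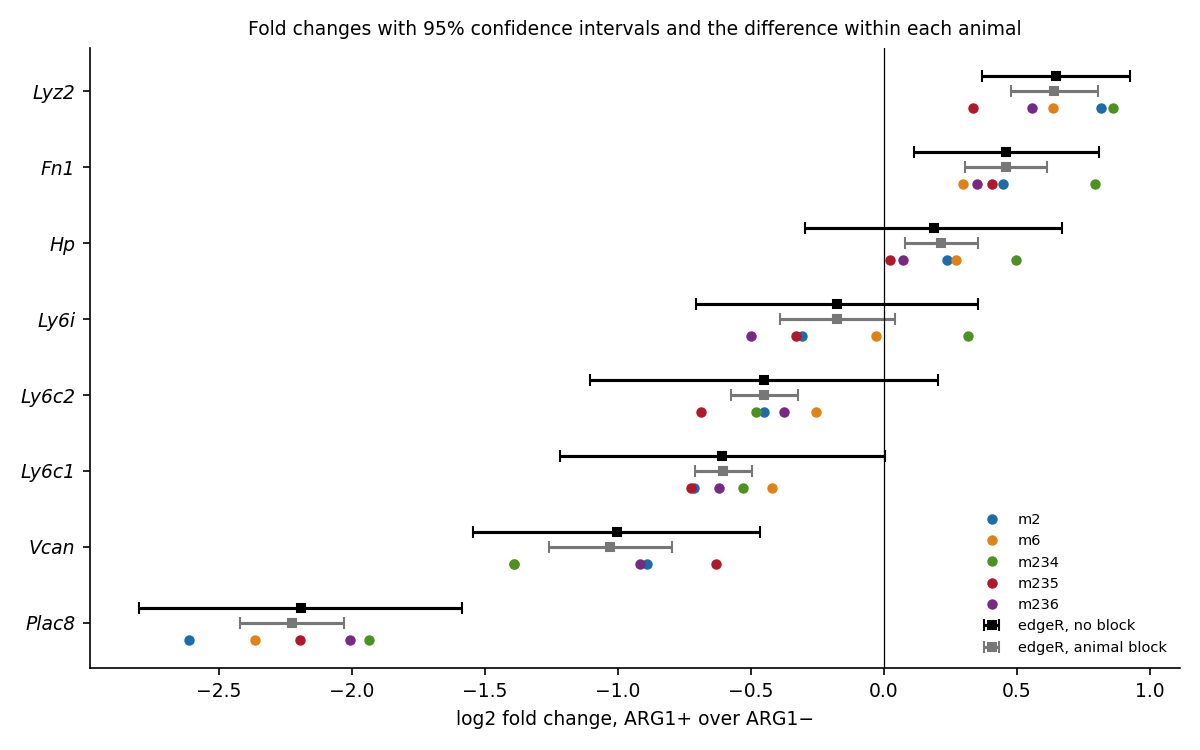
Log2 fold change of each member (x axis, ARG1+ over ARG1−) with 95% confidence intervals from edgeR without a block (black squares) and with the animal as a block (grey squares), and the difference between the libraries of each animal (coloured points, n = 5). *Plac8* lies between −2.61 and −1.93 in the 5 animals, while the intervals of *Ly6c2*, *Ly6c1*, *Ly6i* and *Hp* cross 0 without the block. The points of m6 and m234 coincide for *Vcan*.

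Among the surface Ly6 proteins, *Ly6c2* encodes the form of Ly6C that marks inflammatory monocytes, and *Ly6c1* encodes a close relative that is also made by endothelial cells. *Ly6c2* lies on chromosome 15 from 75108158 to 75111970, *Ly6c1* from 75044018 to 75048830 and *Ly6i* from 74979534 to 74983430, all on the reverse strand of GRCm38. They are copies of each other, and this bears on their counts. Over their coding parts, *Ly6c2* and *Ly6c1* had the same base in 362 of 445 alignment columns (81.3%, with 50 columns of gaps), and their longest run of equal bases was 188, longer than the 50-base reads. This run is shown because no read that falls wholly within it can be assigned to either gene by its sequence. It covers coding bases 66 to 253 of both, counted from the A of the start codon, in the GENCODE transcripts of GRCm38:
Ly6c2 and Ly6c1: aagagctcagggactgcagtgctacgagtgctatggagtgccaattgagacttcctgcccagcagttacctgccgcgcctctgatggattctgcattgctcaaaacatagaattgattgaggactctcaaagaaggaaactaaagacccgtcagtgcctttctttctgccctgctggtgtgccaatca
Just before it, coding bases 6 to 65 hold the most differences of any gapless 60-base window between the pair, 6 in number, which are in capitals:
Ly6c2: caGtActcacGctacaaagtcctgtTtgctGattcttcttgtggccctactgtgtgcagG
Ly6c1: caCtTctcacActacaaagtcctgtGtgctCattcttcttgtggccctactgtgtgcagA
Between *Ly6c2* and *Ly6i* the same search gave 17 differences in 60 bases, at coding bases 167 to 226 of both:
Ly6c2: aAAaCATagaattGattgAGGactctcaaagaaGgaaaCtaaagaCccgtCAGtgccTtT
Ly6i: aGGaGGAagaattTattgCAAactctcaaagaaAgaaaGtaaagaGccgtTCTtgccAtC
Over whole transcripts, 31.2% of the 50-base stretches of *Ly6c2* and 30.8% of those of *Ly6c1* were found in another gene, mainly each other, but only 4.76% of those of *Ly6i*. The counts of *Ly6c2* and *Ly6c1* are therefore uncertain as single genes.

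*Ly6c2* was at 460.4, 634, 412, 903 and 1027 CPM in the ARG1- libraries of m2, m6, m234, m235 and m236 and at 337, 532, 296, 559.8 and 791 CPM in the ARG1+ libraries of the same animals. The animals had the same order in both fractions, from m234 and m2 at the low end to m236 at the high end. The highest animal was 2.49-fold above the lowest in ARG1- cells and 2.68-fold in ARG1+ cells, whereas the group means of 687 ± 269.9 and 503 ± 198 CPM (n = 5 each) differed 1.37-fold. The log2 fold change was −0.45 (standard error 0.30, FDR 0.338), with a 95% confidence interval of −1.11 to 0.20. Within animals, the difference lay between −0.69 (m235) and −0.25 (m6), and blocking on the animal gave a log2 fold change of −0.45 and an FDR of 2.62e-04. The groups thus overlapped widely, and the call rests on reading each ARG1+ library against its own animal.

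*Ly6c1* was at 142, 204, 125, 249 and 308 CPM in the ARG1- libraries of m2, m6, m234, m235 and m236 and at 86.7, 152, 86.3, 150.3 and 200.3 CPM in the ARG1+ libraries. Here too m234 and m2 were lowest and m236 was highest in both fractions. The log2 fold change was −0.61 (standard error 0.280, 95% confidence interval −1.22 to 0.0039, FDR 0.169), and with the animal block it was −0.60 with an FDR of 1.69e-05. Summed to a single value for the pair, *Ly6c1* and *Ly6c2* had a log2 fold change of −0.48 (FDR 0.296). Without the ARG1- library of m234 the log2 fold changes were −0.59 for *Ly6c2* and −0.74 for *Ly6c1*, with FDRs of 0.209 and 0.0960. They were smallest when ARG1- m236 was left out, at −0.26 for *Ly6c2* (FDR 0.605) and −0.42 for *Ly6c1* (FDR 0.346), and largest when ARG1+ m236 was, at −0.67 and −0.79, and neither gene was called in any of these fits.

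The share of *Ly6c1* in the summed counts of the pair does not depend on the scaling of the libraries. It was 23.6%, 24.3%, 23.2%, 21.6% and 23.1% in the ARG1- libraries of m2, m6, m234, m235 and m236 and 20.5%, 22.3%, 22.6%, 21.2% and 20.2% in the ARG1+ libraries. The share was lower in the ARG1+ library of 5 of 5 animals, and the groups overlapped. The means of 21.3 ± 1.06% and 23.2 ± 1.001% (n = 5 each) differed by −1.82 percentage points (2-sided exact permutation test, p = 0.0397, where 5 against 5 libraries allow 0.00794). Paired by animal, the exact p was 0.0625, the smallest that 5 pairs allow. With single libraries left out, the difference lay between −2.21 and −1.52 points, with an exact p from 0.0159 (without ARG1- m235) to 0.0714 (without ARG1+ m2 or m236, or ARG1- m2 or m6). It was 0.0635 without ARG1+ m235 or ARG1- m234 and 0.0556 without ARG1- m236.

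**Figure D2:**
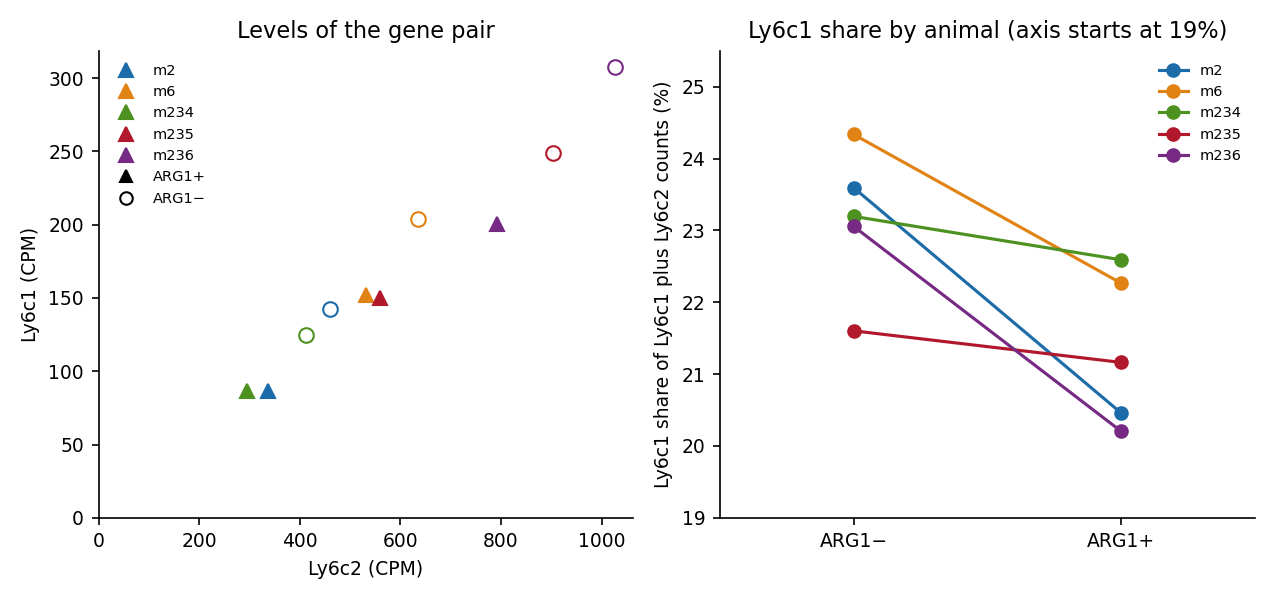
Left: *Ly6c1* against *Ly6c2* in CPM over the 10 libraries, with ARG1− libraries as open circles, ARG1+ libraries as filled triangles and animals by colour. Right: the share of *Ly6c1* in the summed counts of the pair (y axis in percent, starting at 19%) with lines joining the 2 libraries of each animal; all 5 lines fall from ARG1− to ARG1+, from 21.6% to 24.3% down to 20.2% to 22.6%.

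*Ly6i*, a further Ly6 surface protein of the same cluster, was at 269.6, 449, 393, 603 and 611 CPM in the ARG1- libraries of m2, m6, m234, m235 and m236 and at 218, 440.1, 489, 479 and 432 CPM in the ARG1+ libraries. The m2 libraries were the lowest of both fractions, and m234 was the only animal in which the ARG1+ library was higher. The difference within animals ran from −0.50 (m236) to 0.31 (m234). The log2 fold change was −0.18 (standard error 0.244, 95% confidence interval −0.71 to 0.35, FDR 0.667), and the block left it uncalled (−0.17, FDR 0.190). It was −0.016 when ARG1+ m2 was left out (FDR 0.973), −0.32 when ARG1- m2 was (FDR 0.375), and −0.061 and −0.060 when ARG1- m235 or ARG1- m236 was.

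The other genes of the Ly6 cluster put these values in place. Of 17 listed genes of the locus, 6 were tested, and 0 were called in either direction (edgeR). DESeq2 and limma-trend also called 0, and 0 had an unadjusted p under 0.05 (the lowest, of *Ly6c1*, was 0.0513). With the block, *Ly6a*, *Ly6c1*, *Ly6c2* and *Ly6e* were called lower. *Ly6e*, a broadly expressed interferon-responsive member, was the most abundant, with 1530.3 ± 233.8 CPM in ARG1- and 1329 ± 202 CPM in ARG1+ libraries (n = 5 each; −0.20, FDR 0.282, with the block 0.00302). *Ly6a*, which encodes the stem cell antigen Sca-1, was at 399.7 ± 121 and 470.5 ± 149.6 CPM (n = 5 each; −0.24, FDR 0.543, with the block 0.00600). *Lynx1* was near the filter, at 2.80 and 2.23 CPM (0.31, FDR 0.264). The neutrophil marker *Ly6g*, whose protein was excluded by the gate, had 9 counts over the ARG1+ and 5 over the ARG1- libraries. *Ly6l*, *Gpihbp1*, *Slurp1* and *Lypd2* had 0 counts in all 10 libraries, which allows up to 0.0104 CPM over the pooled libraries (3 counts, counting error only).

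Because *Ly6c2* and *Ly6c1* were nearest to each other in pattern over the 10 libraries (described with the levels), their promoters are printed, with the 250 bases before the start site of each, 5′ to 3′ on the gene's strand, from RefSeq (GRCm38.p6). *Plac8*, the member with the largest difference, is set beside them. Of the 8 members, 5 had a listed promoter (*Ly6c2*, *Ly6c1*, *Plac8*, *Vcan* and *Lyz2*). The capitals mark letters searched for on both strands, which were GAGGAAGT (PU.1) and TGTGGT (RUNX, seen as ACCACA on the other strand), the names of myeloid transcription factors whose known motifs hold these letters:
Ly6c2, chr15:75111972-75112221, reverse strand: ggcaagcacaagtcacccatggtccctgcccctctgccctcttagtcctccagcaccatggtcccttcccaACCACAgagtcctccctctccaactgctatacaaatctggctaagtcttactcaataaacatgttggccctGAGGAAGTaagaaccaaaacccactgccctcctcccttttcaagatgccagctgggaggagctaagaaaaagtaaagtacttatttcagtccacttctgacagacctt
Ly6c1, chr15:75048838-75049087, reverse strand: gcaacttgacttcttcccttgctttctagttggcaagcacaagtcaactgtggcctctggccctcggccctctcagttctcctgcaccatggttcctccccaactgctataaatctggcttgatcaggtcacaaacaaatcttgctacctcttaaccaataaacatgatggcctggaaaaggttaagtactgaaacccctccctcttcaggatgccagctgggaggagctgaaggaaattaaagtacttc
Plac8, chr5:100572206-100572455, reverse strand: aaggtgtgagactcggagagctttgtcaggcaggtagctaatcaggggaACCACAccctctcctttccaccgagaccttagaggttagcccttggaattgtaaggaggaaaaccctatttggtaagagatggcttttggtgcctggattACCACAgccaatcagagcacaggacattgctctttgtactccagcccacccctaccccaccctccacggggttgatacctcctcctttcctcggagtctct
Over the full 300 bases, the *Ly6c2* and *Ly6c1* promoters had the same base in 62.3% of alignment columns, against 42.4% to 48.2% for the other pairs of listed members. The PU.1 letters stood 108 bases before the start site of *Ly6c2* and were absent from the window of *Ly6c1*, and 3.2% of 32851 promoters of this length hold them. A further PU.1 match in *Ly6c2* and a further RUNX match in *Plac8* lay 26 bases past the start site. The RUNX letters, present in 16.8% of promoters, were found in *Ly6c2*, *Plac8* and *Lyz2*. The letters TTGCNNAA (C/EBP, 10.8% of promoters), TTCNNNGAA (GAS, 8.3%) and GAAA, any 2 bases, GAAA (ISRE, 3.44%) were in none of the 5 windows. A match of letters describes the sequence and does not show a binding site.

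*Plac8*, at 100553725 to 100572245 of chromosome 5 (reverse strand), encodes a small cysteine-rich protein that is abundant in circulating monocytes and in plasmacytoid dendritic cells. It shares none of its 50-base stretches with another gene. It was at 407, 340.1, 552, 566 and 270.4 CPM in the ARG1- libraries of m2, m6, m234, m235 and m236 and at 66.3, 65.8, 144, 123 and 67.1 CPM in the ARG1+ libraries. Each ARG1+ library lay below the lowest ARG1- library. Between the means of 427 ± 129.6 and 93.3 ± 37.6 CPM (n = 5 each), the log2 fold change was −2.19 (standard error 0.278, 95% confidence interval −2.80 to −1.59, FDR 7.45e-04; 2-sided exact permutation test, p = 0.00794, the smallest that 5 against 5 libraries allow). With the animal block the log2 fold change was −2.22 (FDR 3.80e-07). The permutation test takes the libraries as unpaired, and a test paired by animal allows no exact p below 0.0625. *Plac8* remained called with each library or animal left out, at −2.40 to −2.06, and was at −2.08 without the ARG1- library of m234.

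The matrix proteins among the members went in opposite directions within the animals. *Vcan* (chromosome 13, 89655312 to 89742509, reverse strand) encodes versican, a large chondroitin sulfate proteoglycan that is made by classical monocytes. It was at 63.8, 57.4, 41.9, 61.0 and 36.2 CPM in the ARG1- libraries of m2, m6, m234, m235 and m236 and at 34.3, 21.7, 15.9, 39.3 and 19.1 CPM in the ARG1+ libraries. The ARG1+ library of m235 lay above the ARG1- library of m236, which was the only overlap. The means were 52.1 ± 12.2 and 26.1 ± 10.2 CPM (n = 5 each), 2.01-fold lower in ARG1+ cells, and the log2 fold change was −1.005 (standard error 0.247, 95% confidence interval −1.54 to −0.47, FDR 0.0214; with the animal block −1.03, FDR 6.87e-05). The call was lost when the libraries ARG1+ m6 (FDR 0.0559), ARG1+ m236 (0.0512) or ARG1- m2 (0.0535) were left out, or both of m2 (0.0614) or of m6 (0.113), where the log2 fold change was −1.04 to −0.91.

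*Fn1* (chromosome 1, 71585520 to 71653200, reverse strand) encodes fibronectin, an adhesive glycoprotein of the extracellular matrix that integrins bind. It was at 8803, 7244, 5717, 6081 and 5556 CPM in the ARG1- libraries of m2, m6, m234, m235 and m236 and at 11998, 8901, 9919, 8071 and 7093 CPM in the ARG1+ libraries. The m2 animal was highest and m236 lowest in both fractions, and the groups overlapped. From 6681 ± 1358 to 9196 ± 1881 CPM (n = 5 each), the log2 fold change was 0.46 (standard error 0.160, 95% confidence interval 0.11 to 0.81, FDR 0.0776), short of the limit. With the animal block the FDR was 7.93e-04, with DESeq2 it was 0.0239, and without the ARG1- library of m2 it was 0.0364. Exons of *Apol7d* on the other strand cover 2.68% of the exon bases of *Fn1*, and a strand setting for the counting was not found in the methods or labels.

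The secreted defence proteins were *Lyz2* and *Hp*. *Lyz2* (chromosome 10, 117277331 to 117282321, reverse strand) encodes the lysozyme of macrophages and monocytes, which cuts bacterial cell walls, and it stays on as these cells mature. It was at 7299, 7168, 6218, 6724 and 8835 CPM in the ARG1- libraries of m2, m6, m234, m235 and m236 and at 12864, 11144, 11291, 8486 and 13001 CPM in the ARG1+ libraries. A single ARG1+ library, that of m235, lay below the highest ARG1- library, that of m236. The means were 7249 ± 983 and 11357 ± 1821 CPM (n = 5 each), 1.57-fold higher in ARG1+ cells, and the log2 fold change was 0.65 (standard error 0.128, 95% confidence interval 0.37 to 0.93, FDR 0.00764; with the animal block 0.64, FDR 1.55e-04). The FDR was 0.0516 without both libraries of m2 and 0.0534 without both of m6, at log2 fold changes of 0.60 and 0.65, with 0.0153 when only ARG1- m234 was left out.

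*Lyz2* has a neighbour and near copy, *Lyz1*, the lysozyme of intestinal Paneth cells, which lies on chromosome 10 from 117287797 to 117292868. Their coding parts had the same base at 425 of 447 positions (95.1%), and 15.4% of the 50-base stretches of *Lyz2* are also in *Lyz1*. The 60-base window with the most differences, 9 at coding bases 61 to 120, is shown with the differences in capitals, since reads across it can tell the copies apart:
Lyz2: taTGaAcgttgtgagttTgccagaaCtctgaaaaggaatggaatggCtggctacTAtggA
Lyz1: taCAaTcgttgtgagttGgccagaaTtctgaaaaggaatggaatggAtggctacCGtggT
The counts of *Lyz1* came to 10.3% to 11.1% of those of *Lyz2* in each of the 10 libraries. *Lyz1* had a log2 fold change of 0.62 (FDR 0.00681), and its counts are uncertain for the same reason.

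*Hp* encodes haptoglobin, which binds free haemoglobin, and lies at 109575128 to 109579172 of chromosome 8 (reverse strand). It was at 230.1, 335, 194, 344 and 451 CPM in the ARG1- libraries of m2, m6, m234, m235 and m236 and at 271, 404, 273, 349.6 and 473 CPM in the ARG1+ libraries. The m236 animal was highest and m2 and m234 were lowest in both fractions. The log2 fold change was 0.19 (standard error 0.222, 95% confidence interval −0.30 to 0.67, FDR 0.611). With the animal block it was 0.22 with an FDR of 0.0217, and the difference within animals ran from 0.0217 (m235) to 0.496 (m234). When ARG1- m234 or ARG1+ m236 was left out the log2 fold change was 0.061, and when ARG1- m236 was it was 0.36 (FDR 0.286).

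**Figure D3:**
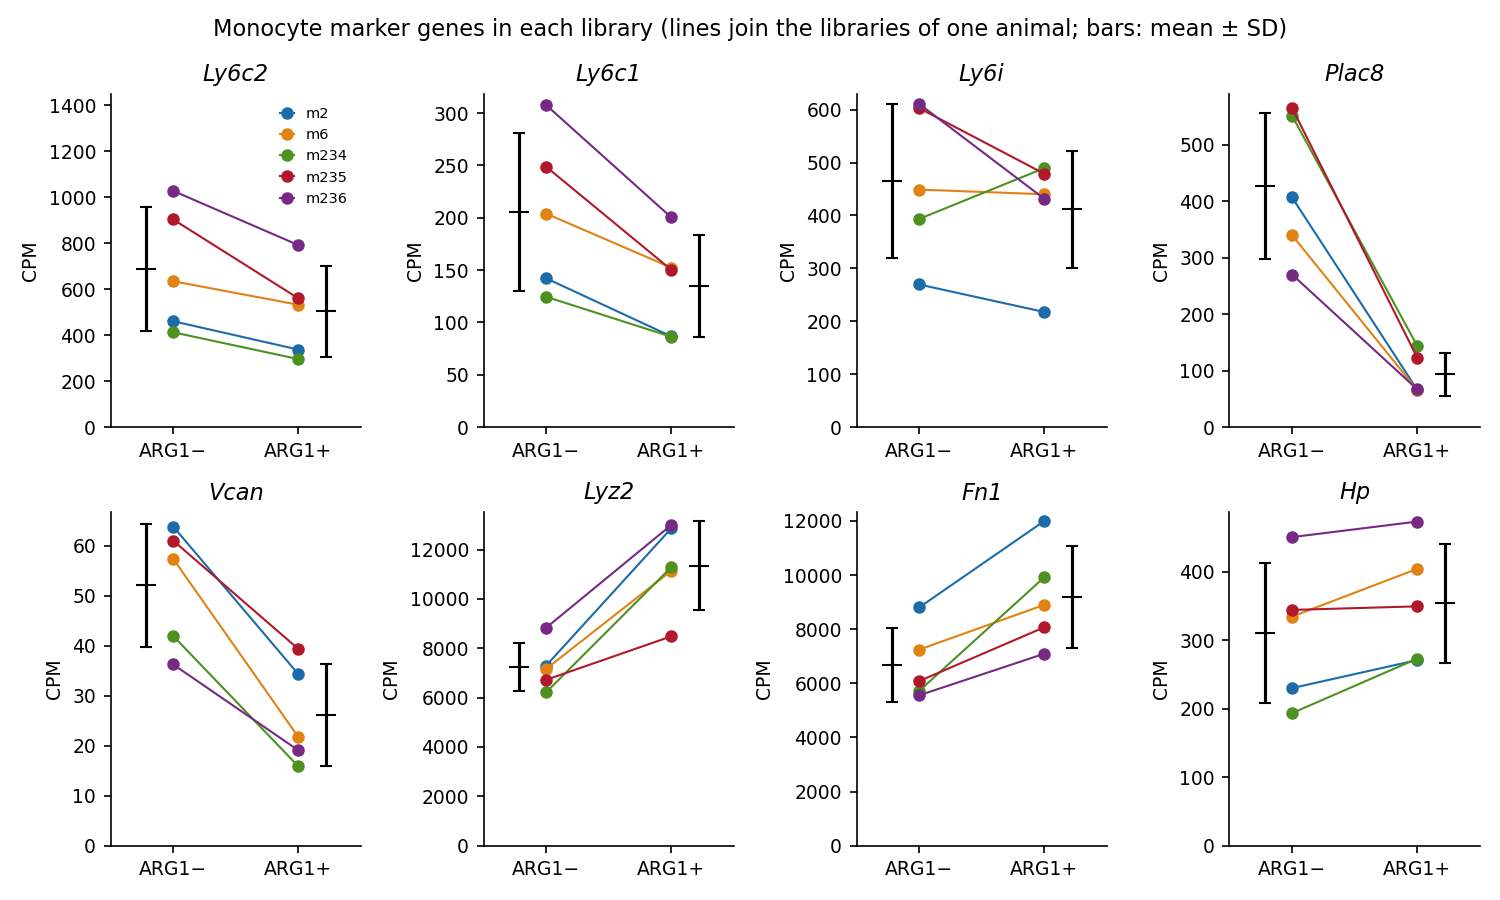
Level of each of the 8 members in CPM (y axes from 0, scaled per gene) in the ARG1− and ARG1+ library of each animal, joined by a line, with the group mean ± SD beside them (n = 5 each). *Plac8* falls from 270.4 to 566 CPM in ARG1− libraries to 65.8 to 144 CPM in ARG1+ libraries, while *Ly6c2* differs more among animals than between the libraries of any animal.

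Levels of different genes were compared as CPM per kilobase of exon. In ARG1- cells the order was *Lyz2* (5508 ± 747), *Ly6c2* (792 ± 311), *Fn1* (788 ± 160.1), *Ly6i* (402 ± 125), *Plac8* (304 ± 92.3), *Hp* (231 ± 75.7), *Ly6c1* (133 ± 48.9) and *Vcan* (3.89 ± 0.913; n = 5 each). In that order, *Lyz2* stood above and *Vcan* below the rest without overlap of libraries, and *Fn1* lay above *Ly6i* without overlap. The other neighbours overlapped with each other. In ARG1+ cells the level per kilobase was 8630.1 ± 1384 for *Lyz2*, 1085 ± 222 for *Fn1*, 579.6 ± 229 for *Ly6c2*, 356 ± 96.2 for *Ly6i*, 263 ± 64.6 for *Hp*, 87.4 ± 31.5 for *Ly6c1*, 66.4 ± 26.7 for *Plac8* and 1.94 ± 0.761 for *Vcan* (n = 5 each). *Hp* and *Ly6c1* were then separated without overlap, and *Fn1* and *Ly6c2* still overlapped. The mean of *Plac8* had moved below those of *Hp* and *Ly6c1*. Its libraries, at 46.8 to 103, overlapped with those of *Ly6c1*, at 55.8 to 129. These levels assume reads along the whole of the annotated exons.

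For each member the genes of nearest pattern over the 10 libraries were found, as the smallest root mean square (RMS) difference between log2 CPM values centred on their own means. This is a description of 10 libraries that share animals and depth. For *Ly6c2* the nearest of all tested genes was *Ly6c1* (RMS 0.108), followed by *Ly6a2* (0.200) and *Gm42783*. For *Ly6c1* it was *Ly6c2*, then *Ly6a2* (0.158) and *Gm19951*. *Ly6i* was nearest to *Serpina3f* (0.182), *Il15ra* (0.193) and its neighbour *Ly6a* (0.222). Genes near to *Plac8* were *Klrk1* (0.283), the receptor NKG2D, and *Ocstamp* (0.391). The nearest to *Vcan* were *Atp2b4* (0.291), *Ripor2* (0.332) and *Ccl12* (0.337), a ligand of the monocyte receptor CCR2. *Lyz2* was nearest to *Lyz1* (0.0306), *Siae* (0.108) and *Nmnat3* (0.109), *Fn1* to *St8sia4* (0.0912), *Cd300lb* (0.100) and *Plxnc1* (0.120), and *Hp* to *Klf9* (0.118), *Shtn1* (0.130) and *Gm42987* (0.138). Apart from *Ly6c2* and *Ly6c1*, no member was among the 3 nearest genes of another.

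Other genes of classical monocytes, from a list of 20 of which 19 were tested, were split in the same manner. Of these, 7 were called lower and 3 higher, with a median log2 fold change of −0.014, and with the animal block 9 were lower and 5 higher. The most abundant was *Thbs1*, a matrix glycoprotein, at 6217 and 5673 CPM (0.13, FDR 0.472). Among the lower genes, chosen for naming after their values were seen, were *Ccr2*, the chemokine receptor that lets monocytes leave the bone marrow (178 ± 51.5 against 387 ± 73.9 CPM; n = 5 each; −1.12, FDR 0.00339), *Ms4a4c* (−1.17, FDR 0.0101) and *Ifitm6* (−2.35, FDR 0.00128). The higher genes were *Mgst1* (0.49, FDR 0.0122), *Lgals3*, the lectin galectin-3 (0.40, FDR 0.0480), and *Itgam*, the integrin CD11b (0.35, FDR 0.0385). The number called higher was 1 when the ARG1+ library of m2, m6 or m235 was left out, the ARG1- library of m2 or m6, or both of m236, and 0 without both of m2 or of m6. *Ms4a3*, a gene of monocyte progenitors, had 0 counts over the ARG1+ and 22 over the ARG1- libraries and was not tested.

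Genes of the Ly6C-low monocyte, which patrols vessels, were lower or not called. Of 12 listed genes, 10 were tested, 5 were called lower and 0 higher (edgeR; likewise 0 higher at an unadjusted p under 0.05 and with DESeq2), with a median log2 fold change of −0.50. With the animal block 6 were lower and 2 higher. *Adgre4* had the largest called difference (−0.9996, FDR 0.0103), and *Nr4a1*, the transcription factor these cells depend on, was the most abundant at 603 ± 114 and 519.6 ± 80.7 CPM (n = 5 each; 0.22, FDR 0.310, with the block 0.00206). The others called lower were *Spn*, *Treml4*, *Itgal* and *Klf2*. The number called lower was 3 when ARG1+ m2 or both libraries of m2 or m236 were left out, and 1 when both of m6 were.

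Of 12 genes whose products bind, process or pair with those of the members, 10 were tested. *Lyz1* was the only one called higher, and *Tlr2*, a receptor for bacterial lipoproteins that also senses versican, was the only one called lower (954 ± 51.3 against 1192 ± 62.5 CPM; n = 5 each; −0.32, FDR 0.00660). With the block 3 were higher and 4 lower. Of the integrins that bind fibronectin, *Itgb1* was the most abundant at 535 and 484 CPM (0.14, FDR 0.106), and *Itga5*, its partner in the classical fibronectin receptor, was at 219 and 269 CPM (−0.30, FDR 0.0518). *Itga4* (−0.098, FDR 0.365), *Itgav* (0.025, FDR 0.869) and *Itgb3* (−1.21, FDR 0.188, at 1.21 and 3.11 CPM) were not called. Nor were *Cd44*, which binds hyaluronan and versican (0.0045, FDR 0.986), *Selplg*, an adhesion molecule (−0.24, FDR 0.164), and *Sdc4* (0.13, FDR 0.470). *Cd163*, the receptor that takes up haptoglobin bound to haemoglobin, was under the filter, with 6 counts over the ARG1+ and 1 over the ARG1- libraries. The number called lower was 2 without the ARG1+ library of m235, the ARG1- library of m234 or both of m235.

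**Figure D4:**
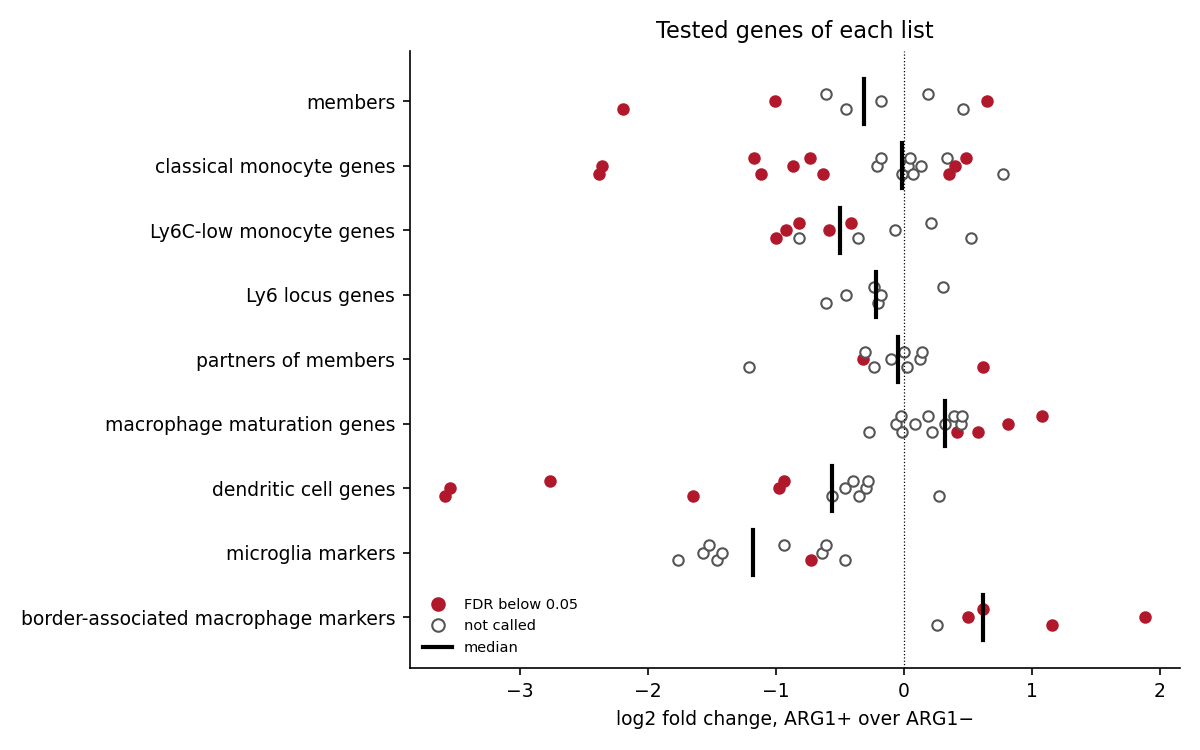
Log2 fold change (x axis, ARG1+ over ARG1−) of each tested gene in 9 lists, with red points for an FDR below 0.05 (edgeR), open points for genes not called and black bars for the list medians. The medians are −0.31 for the 8 members, −0.50 for Ly6C-low monocyte genes, −0.56 for dendritic cell genes and 0.32 for macrophage maturation genes.

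Genes of other cell types that the gate could hold were measured beside the members. Of 13 tested dendritic cell genes, 6 were called lower and 0 higher (edgeR; 12 lower with the block, 0 higher with DESeq2 or at an unadjusted p under 0.05), with a median log2 fold change of −0.56. *Flt3*, the growth factor receptor of dendritic cells, was at 0.289 ± 0.140 and 3.63 ± 1.47 CPM (n = 5 each; −3.59, FDR 2.40e-04), and *Cd74*, the class II chaperone and most abundant gene of the list, was at 6495 and 7957 CPM (−0.29, FDR 0.268). The summed level of the list was 9783 to 18682 CPM in ARG1+ and 14729 to 18225 CPM in ARG1- libraries. Without the ARG1+ library of m234, 11 of the genes were called lower, and 10 without both of m234. Of 8 plasmacytoid dendritic cell markers, which is a type that makes *Plac8*, 4 were tested and 0 were called (edgeR), while 3 were lower with the block or at an unadjusted p under 0.05, 2 with DESeq2 and 1 with limma-trend. *Tcf4* was the most abundant (67.7 and 81.0 CPM, −0.25, FDR 0.148), and the sum of the list was 85.3 to 106 CPM in ARG1+ and 99.5 to 210.1 CPM in ARG1- libraries. The top value was that of ARG1- m234, and the other ARG1- libraries held 99.5 to 147 CPM. *Siglech*, at up to 70.8 CPM in an ARG1- library, is also on the list of microglia markers below. The part of dendritic or plasmacytoid dendritic cells in the difference of *Plac8* was not tested.

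Of 10 microglia markers, 1 was called lower, *P2ry13* (−0.72, FDR 0.0344), with a median of −1.18 (edgeR). The number called lower was 8 with the block and 3 with DESeq2, and 7 were lower at an unadjusted p under 0.05. The summed level of the list was 793 to 1229.8 CPM in ARG1+ and 883 to 3279 CPM in ARG1- libraries. The top value was that of ARG1- m234, and the other ARG1- libraries held 883 to 1570 CPM. The median of −1.18 includes ARG1- m234, and no median without that library is given. Without the ARG1- library of m235, 7 were called, and 0 when the ARG1+ library of m2, m6, m234 or m235 was left out, the ARG1- library of m236 or both of m2 or m6. Of 13 neutrophil markers, 5 were tested and 2 called lower, *S100a9* (0.242 and 2.44 CPM, −3.40, FDR 0.00977) and *Lcn2*, and *Mmp8* was the most abundant (206 and 114 CPM, 0.84, FDR 0.0878). Their sum was 302 to 455 CPM in ARG1+ and 267 to 378 CPM in ARG1- libraries. The number called was 1 when ARG1- m2, m6 or m235 or both libraries of m235 were left out, and 0 when both of m2 or of m6 were. Of 7 endothelial markers, which include *Ly6c1* as the most abundant, 4 were tested and *Flt1* was called lower (−0.47, FDR 0.0370). That call was lost without any of the ARG1+ libraries of m2, m6, m235 or m236 or the ARG1- libraries of m2, m235 or m236, or both of m2, m235 or m236. *Cldn5*, which defines brain endothelium, was under the filter, *Cdh5* was at 0.978 and 0.964 CPM, and the sum over the list, *Ly6c1* included, was 187 to 294 and 250 to 449.6 CPM. Of 6 B cell markers, 3 were tested and *Ighm* and *Jchain* were called lower (*Jchain* −2.87, FDR 0.0184), with sums of 4.90 to 13.01 and 19.4 to 52.2 CPM. None of the 8 T and NK cell markers or of the 6 fibroblast markers passed the filter. Of 3 tested oligodendrocyte and precursor markers 0 were called (edgeR; 1 with DESeq2 and 1 at an unadjusted p under 0.05), with *Mbp* most abundant (103 and 91.2 CPM, 0.18, FDR 0.0789, with the block 0.00306). Of 3 tested astrocyte markers, *Gja1* was called higher (1.18, FDR 0.00443), and *Gfap* was the most abundant (2.43 and 3.08 CPM). With the block, 3 neutrophil markers were called lower and 2 higher, 2 endothelial markers lower, and 1 astrocyte marker each way. The part of these cell types in the members' differences was not tested.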

How the data were processed

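RNA of the 10 sorted fractions was sequenced as 50-base single-end reads of a directional kit. The authors used STAR (2.7.10b in the submitters' processing notes) for alignment to GRCm38, counted alignments on the basic transcripts of Ensembl with summarizeOverlaps in Union mode, without secondary or vendor-failed alignments, and summed them to genes. The deposited values are whole-number counts per gene without normalization, and no column was left unused. In the sources used here, no strand setting was given for the counting.

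Genes over 1 CPM in 3 or more libraries entered edgeR 4.0.16 (R 4.3.3, quasi-likelihood test, TMM, no block, Benjamini-Hochberg over 13740 genes). The filter and the limits (FDR 0.05, absolute log2 fold change 1) follow the authors' methods, which name limma-trend. Alternatives were DESeq2 1.42.0, limma-trend (limma 3.58.1), other library sizes and filters, a replicate block for the animal, and omission of each library and animal. The fraction pairs share an animal per the labels, and residuals of libraries of the same animal correlated at 0.383 to 0.679 across genes, against −0.388 to 0.0744 for different animals. Differences within animals are of log2(CPM + 0.25). On simulated counts of this comparison with 200 of 13740 genes changed, edgeR recovered 83 of 100 2-fold and 100 of 100 4-fold changes with 5 false calls. DESeq2 recovered 89 and 100 of them with 23 false calls. The simulated libraries held no animal effect, so recovery in libraries paired by animal was not measured.

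Shared 50-base stretches, exon lengths and coding parts came from GENCODE vM21 (GRCm38), aligned with Biopython 1.88, and promoters from RefSeq. The members and gene lists were chosen with earlier results of these data known. The genes named are the members, the 3 genes nearest to each member, and all tested genes of the Ly6 locus and binding partner lists. Of each other list, the most abundant tested gene and the called gene with the largest change are also named. Values of 2 genes under this rule are not reported here. Other names were chosen after their values were seen.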

Additional observations from a re-analysis of the deposited data

Results flagged for a closer look

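Of 18 groups of 5 libraries examined (the 8 members and the *Ly6c1* share, in ARG1+ and in ARG1- cells), 1 held a library far from the others. In ARG1+ cells, *Ly6i* was at 218 CPM in the library of m2 and at 432 to 489 CPM in the other 4, so that the gap to the next library was 0.845 of the whole range on the log2 scale, above the critical value of 0.71 for 5 values. Chance gives about 1 such group in 20. The ARG1- library of m2 was also the lowest of its group for *Ly6i*, at 269.6 CPM.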

How the results depend on the processing

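The fold change of no member, nor the difference in the *Ly6c1* share, changed sign under the alternatives run. *Plac8* was called under all of them (−2.40 to −2.06), *Ly6i* under none. The number of members called higher, 1, was 2 with DESeq2 and 3 under the animal replicate block, 0 with a log2 fold change of at least 1 required, and 0 to 2 with libraries or animals left out (2 without the ARG1- library of m2, 0 without both libraries of m2 or of m6). The number called lower, 2, was 4 with the replicate block and 1 to 2 with libraries or animals left out (1 without ARG1+ m6, ARG1+ m236, ARG1- m2, or both of m2 or m6, where *Vcan* lost its call). The share of *Ly6c1* differed by −2.21 to −1.52 points with single libraries left out, and under the pairing by animal the difference of −1.82 points had an exact p of 0.0625. The causes of these changes were not tested, beyond the fewer libraries of each omission. The animal block changed the calls of *Ly6c2*, *Ly6c1*, *Fn1* and *Hp* and of no other member. Over all tested genes it called 2307 higher and 2519 lower, against 937 and 845 without it, and DESeq2 called 1276 and 1307. With total counts in place of TMM the split was 705 higher and 1281 lower. The ARG1- library of m234, with 8396863 counts, limits the precision of genes near the filter, while each member had at least 357 counts there.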

Other observations

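Genes of macrophage maturation went the other way from *Plac8* and *Vcan*. Of 15 listed genes, all were tested, 4 were called higher and 0 lower in ARG1+ cells (edgeR; 10 and 0 under the animal block, and 0 lower with DESeq2 or at an unadjusted p under 0.05), with a median log2 fold change of 0.32. *Gpnmb*, a lysosomal glycoprotein of lipid-laden phagocytes, was at 2200.2 ± 440.3 and 1042 ± 292 CPM (mean ± SD, n = 5 each; 1.08, edgeR FDR 0.00466). *Ctsd*, the lysosomal protease cathepsin D, was at 4638 ± 477 and 2642 ± 368 CPM (mean ± SD, n = 5 each; 0.81, FDR 8.60e-04). *Cd68* (0.58, FDR 0.00155) and *Mertk*, a receptor for dying cells (0.42, FDR 0.0327), were the others. *Apoe*, the most abundant at 19309 and 14168 CPM, was not called (0.45, FDR 0.238, with the block 6.32e-04).

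Of 9 markers of border-associated macrophages, 5 were tested and 4 called higher, with a median of 0.62, and *Cd163*, *Lyve1*, *Folr2* and *Cbr2* were under the filter. *Pf4*, a platelet-type chemokine, was at 17.3 ± 6.16 and 4.46 ± 2.31 CPM (mean ± SD, n = 5 each; 1.88, edgeR FDR 0.00324), and *Stab1*, a scavenger receptor and the most abundant of the list, was at 839 ± 108 and 547 ± 49.8 CPM (mean ± SD, n = 5 each; 0.62, FDR 0.00195). *Mrc1* and *Ms4a7* were the others. The number called was 2 without both libraries of m6. The summed level of the list was 1056 to 1435 CPM in ARG1+ and 657 to 883 CPM in ARG1- libraries, and its part in the members' differences was not tested.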
